A study of Mus musculus with 6 samples.

Results

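Choroid plexus genes were followed in brain RNA from 6 female littermate mice, 4 homozygous for the melanotransferrin knockout (MTf -/-, strain given as C57BL/6 - Lucy, a name the labels do not explain) and 2 wild type (MTf +/+, C57BL/6), all 123 days old, with 1 Affymetrix whole-genome expression array per mouse. The labels name no treatment and do not say how the knockout was made or which part of the gene was deleted. The 10 genes, Ttr, Kl, Folr1, Clic6, Aqp1, Otx2, Cldn2, Sostdc1, Calml4 and F5, were taken as known markers of the choroid plexus epithelium, and every probe set annotated to exactly 1 of them was kept with no filter on dim signals. Each probe set combines several short probes against a transcript. This gave 18 probe sets of the 45037 on the array that are not controls, and 10 of the 18193 genes with a probe set of a single symbol. There were 4 probe sets for Ttr, 2 each for Kl, Clic6, Cldn2, Sostdc1 and F5, and 1 for each of the other 4 genes. The mice are called knockout 1 to 4 and wild type 1 and 2 in order of deposit, and values are listed in that order throughout.

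The choroid plexus is a fold of vascular tissue in the brain ventricles, covered by a single-layered epithelium that secretes the cerebrospinal fluid. Its epithelial cells are joined by tight junctions and form the barrier between blood and that fluid. They carry water, ions and vitamins across and secrete hormone carriers into the fluid. The tissue is a small part of the brain, and its RNA enters a brain extract in proportion to how much of it was taken with the brain. In such bulk RNA, fewer epithelial cells and less RNA per cell cannot be told apart.

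Promoter sequence is shown for Calml4 and F5, 2 of the members that followed the others closely across the mice, and for Otx2, the transcription factor among the members. Sequences are from RefSeq on GRCm38.p6, 5′ to 3′ on the strand of the gene, and cover the 250 bases before an annotated start. For F5 this is the start of the gene. The Calml4 and Otx2 windows shown lie inside the gene, at chr9:62857472-62875921 and chr14:48656781-48667644, so their starts are internal ones. Of the 10 genes 6 had an entry (Kl, Aqp1, Otx2, Cldn2, Calml4 and F5), with 9 windows in all, 4 of them for Otx2. Capitals mark GGGCGG, the core of a GC box, in Calml4 and F5, and TAATCC, the core site of Otx2 and related homeodomain proteins, in Otx2. Both strands were searched, and a match on the other strand is read as CCGCCC or GGATTA.
Calml4 (chr9:62857854-62858103, plus strand): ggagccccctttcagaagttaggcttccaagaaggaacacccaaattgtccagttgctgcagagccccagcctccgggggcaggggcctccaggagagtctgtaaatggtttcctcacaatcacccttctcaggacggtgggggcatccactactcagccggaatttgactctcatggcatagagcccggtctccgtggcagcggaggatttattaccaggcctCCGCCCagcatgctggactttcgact
F5 (chr1:164151585-164151834, plus strand): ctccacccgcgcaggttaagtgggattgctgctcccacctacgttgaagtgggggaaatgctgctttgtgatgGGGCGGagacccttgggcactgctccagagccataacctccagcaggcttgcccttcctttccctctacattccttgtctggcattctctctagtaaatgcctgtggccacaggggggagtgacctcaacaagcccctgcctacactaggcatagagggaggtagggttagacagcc
Otx2 (chr14:48665110-48665359, minus strand): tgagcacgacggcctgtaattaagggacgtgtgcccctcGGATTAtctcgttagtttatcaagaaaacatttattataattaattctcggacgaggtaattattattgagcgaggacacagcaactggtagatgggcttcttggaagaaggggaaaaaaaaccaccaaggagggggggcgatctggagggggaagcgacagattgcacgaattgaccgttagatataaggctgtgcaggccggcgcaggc

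The match lay 26 bases before the start in Calml4, 177 in F5 and 211 in Otx2. In Calml4 and Otx2 this is the start inside the gene. TAATCC was present in 1 of the 9 member windows, that of Otx2 shown, and in 6.25% of the 32851 windows of the same length in the table. GGGCGG was present in 4 of the 9, those of Kl, Aqp1, Calml4 and F5, against 32.7% of all windows. A match describes the letters only, and no match says only that these letters are not in the window.

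The deposited signals are linear intensities that the authors had scaled to an equal trimmed mean on every array. Pairs of arrays correlated at 0.953 to 0.969, with no identical pair. Wild type 1 stood apart as the dimmest array, with a median signal of 192.5 against 238.2 to 278.3 on the others and 24.5% of its probe sets below the offset of 49.6 added before taking logs, against 17.6% to 20.2%. Knockout 4 was at the other end, with the highest median, 278.3, and the fewest probe sets below the offset, 17.6%. Its mean r with the other arrays was the lowest, at 0.957, beside 0.961 to 0.965. Knockout 2 stood apart in cerebellar genes, with a signal of 185.8 for the Purkinje cell gene Pcp2 against 22260 to 34050 in the other 5 mice. The targeted gene, Meltf, read 80.7, 132.9, 155.9 and 84.1 in the knockout mice against 146.5 and 228.7 in the wild-type mice, so the groups overlapped and the position of its probes relative to the deletion is not given. Results that rest on wild type 1 or knockout 2 are given with and without them.

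Ttr encodes transthyretin, the carrier of thyroid hormone and of retinol-binding protein that the choroid plexus secretes into cerebrospinal fluid. On its brightest probe set it read 68054, 82385, 89880 and 100808 in the knockout mice against 54918 and 91470 in the wild-type mice. Wild type 1 was lowest and knockout 4 highest, and both wild-type mice together spanned most of the knockout range. Knockout mice averaged 85282 ± 13752 (SD, n = 4) and wild-type mice 73194 ± 25846 (SD, n = 2). The log2 fold change, knockout minus wild type, was 0.25 (SE 0.27), with a 95% interval from -0.36 to 0.87 (limma adjusted p = 0.86). Without wild type 1 it was -0.12, so the direction rested on that array.

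On the other 3 Ttr probe sets wild type 1 was again lowest, and the highest was wild type 2 on one and knockout 4 on the others. Their log2 fold changes were 0.17, 0.30 and 0.065, with standard errors of 0.29, 0.27 and 0.34. The 6 correlations between Ttr probe sets over the 6 arrays ran from 0.91 to 0.98 (exact permutation p from 0.00139 to 0.00417, adjusted over the 11 pairs of probe sets of 1 gene 0.00509 to 0.00764), where 0.00139 is the smallest p the 720 orders can give. Spearman's rho for these pairs was 0.94 or above, and r was 0.72 or above without the 2 arrays farthest from the median. These probe sets may share probes or transcripts, so they repeat the measurement within a mouse and are no added mice.

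Ttr was at the very top of the signal scale, ranking between 3 and 8 among all probe sets on each array on its brightest probe set. The top of that scale differed between arrays too. The mean signal of the 100 brightest probe sets that are no member was 52874, 61489, 66616 and 68266 in the knockout mice against 44396 and 65856 in the wild-type mice. The highest value was 1.54 times the lowest for these 100 and 1.84 times for Ttr. Set against the 100, Ttr was 1.29, 1.34, 1.35 and 1.48 in the knockouts and 1.24 and 1.39 in wild type, still highest in knockout 4 and lowest in wild type 1. After quantile normalisation, which near the top leaves little but the rank, Ttr spanned 1.06-fold over the 6 mice. The part of the array scale in the spread of Ttr was not tested beyond these values.

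**Figure D1:**
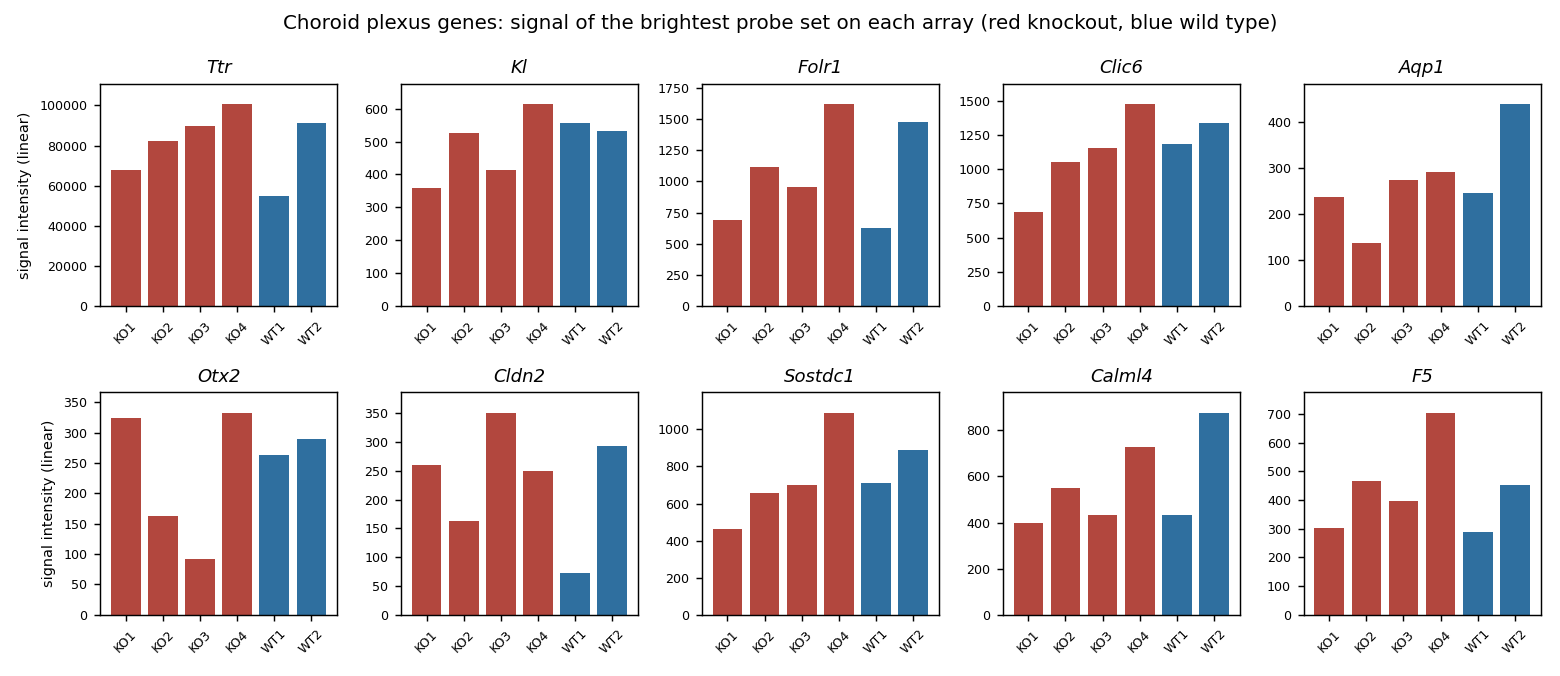
Signal intensity (linear, axes from 0) of the brightest probe set of each choroid plexus gene on each array; KO1 to KO4 are the knockout mice and WT1 and WT2 the wild-type mice, 1 bar per mouse. Knockout 4 was highest for 7 of the 10 genes and wild type 2 for 2, and the values of the 2 genotypes overlap for each gene.

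Folr1 encodes the folate receptor alpha, through which the epithelium moves folate from blood to cerebrospinal fluid. It read 687.4, 1117.5, 951.8 and 1622.2 in the knockout mice against 624.9 and 1473.5 in the wild-type mice. Knockout 1 and wild type 1 were low and knockout 4 and wild type 2 high, so each genotype held a mouse from each end. The log2 fold change was 0.11 (SE 0.36), with an interval from -0.68 to 0.91 (limma adjusted p = 0.958). It was -0.48 without wild type 1. Its spread was nearly the same on another scaling, with the highest value 2.6 times the lowest as deposited and 2.55 times after quantile normalisation.

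Kl encodes klotho, the co-receptor for the hormone FGF23 and also a shed protein of the cerebrospinal fluid. Its bright probe set read 360.2, 525.7, 412.7 and 614.6 in the knockout mice against 555.4 and 531 in the wild-type mice. Both wild-type values lay inside the knockout range, and the log2 fold change was -0.19 (SE 0.25), and -0.079 without knockout 1 or -0.31 without knockout 4. The second Kl probe set was the dimmest of the 18, at 7.8 to 25.3, below the offset on every array and the only member under the dim threshold (a mean signal of 142.8 on the log scale, the 40th percentile). Its r with the bright one was -0.63 (exact permutation p = 0.237, adjusted p = 0.261, rho -0.71, and -0.46 without the 2 arrays farthest from the median), and nothing is read from it.

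Aqp1, the water channel of the apical membrane, read 236.4, 136.7, 273.4 and 290.4 in the knockout mice against 246.4 and 439.4 in the wild-type mice. Wild type 2 was highest and knockout 2 lowest, and the log2 fold change was -0.46 (SE 0.36). It was -0.82 without wild type 1, -0.10 without wild type 2 and -0.27 without knockout 2. Clic6, a member of the chloride intracellular channel family and the only one of the 10 genes on chromosome 16 with Meltf, read 690.1, 1049.6, 1156.3 and 1476.9 in the knockouts and 1182.7 and 1338.1 in wild type on its brighter probe set. Its log2 fold changes were -0.24 on that probe set and -0.16 on the other, with standard errors of 0.25 and 0.22. Without knockout 1 the brighter one was at -0.048, and without knockout 4 at -0.40.

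Cldn2, a claudin that makes tight junctions permeable to cations and water, was the 1 gene whose probe sets went opposite ways on the deposited scaling. The brighter one read 259.3, 163.5, 350.9 and 248.7 in the knockout mice against 73 and 292.6 in the wild-type mice, a log2 fold change of 0.54 (SE 0.45), which was -0.20 without wild type 1. The other read 213, 68.9, 266.9 and 75.2 against 290.6 and 342.7. This was the only member probe set on which the groups did not overlap. Of all probe sets, 16.1% did not overlap in either direction and 4.81% did so with the knockout lower. Its log2 fold change was -0.96 (SE 0.47), with an interval from -2.01 to 0.077 (limma adjusted p = 0.743). The 2 probe sets had an r of 0.054 over the 6 arrays (exact permutation p = 0.925, adjusted p = 0.925, rho 0.31, and 0.65 without the 2 arrays farthest from the median), and wild type 1 was lowest on one and second highest on the other.

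Otx2, the homeodomain transcription factor that the epithelium needs to form and persist, read 324.5, 162.7, 91.6 and 333 in the knockout mice against 263.6 and 288.9 in the wild-type mice. Knockout 3 was lowest, and the 2 wild-type mice lay inside the knockout range. The log2 fold change was -0.35 (SE 0.44), and -0.061 without knockout 3 or -0.54 without knockout 4.

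Sostdc1, a secreted antagonist of BMP and Wnt signalling, read 462, 655.2, 697.5 and 1090.7 in the knockout mice against 713.3 and 891.6 in the wild-type mice. Knockout 1 was lowest and knockout 4 highest on both of its probe sets, with log2 fold changes of -0.19 and -0.13 and standard errors of 0.28 and 0.51. On the brighter one it was -0.0064 without knockout 1, -0.035 without wild type 2, -0.34 without wild type 1 and -0.39 without knockout 4. The dimmer one ranged from 91.8 to 441.6, the widest span within the knockouts of any member, 4.81-fold.

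Calml4, a calmodulin-like protein, read 396.9, 548.7, 433.2 and 728.7 in the knockouts and 433.1 and 876.8 in the wild types, a log2 fold change of -0.25 (SE 0.31). F5, which encodes coagulation factor V, read 303.9, 466.2, 396.6 and 704.4 against 288.9 and 453.7 on its brighter probe set. For F5 the log2 fold change was 0.27 (SE 0.33) there and 0.068 (SE 0.42) on the other. The groups overlapped in both genes. On the brighter F5 probe set knockouts 2 and 4 were above both wild-type mice. On the other, wild type 2, at 544.5, was above all 4 knockouts, at 213.2 to 515.1. Without wild type 1 the log2 fold change was -0.72 for Calml4 and -0.016 for the brighter F5 probe set, and without wild type 2 it was 0.22 and 0.56.

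**Figure D2:**
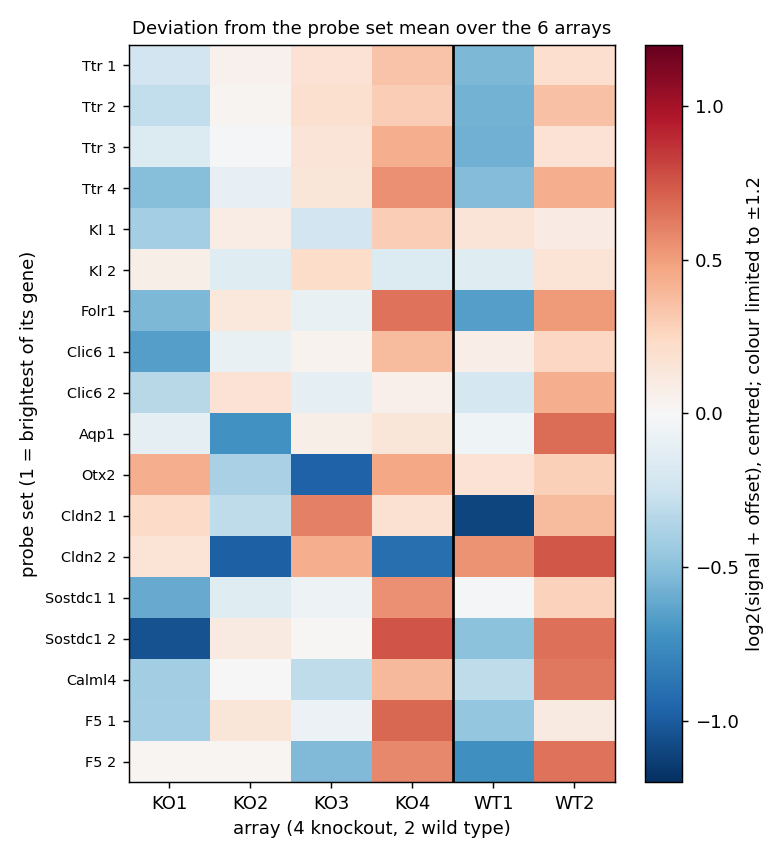
Deviation of each of the 18 probe sets from its own mean over the 6 arrays, as log2(signal + 49.6), with knockout arrays left of the line and wild-type arrays right of it; red is above and blue below the mean. The columns of knockout 4 and wild type 2 are mostly red and those of knockout 1 and wild type 1 mostly blue. Otx2 and Cldn2 differ from the other rows, and their brightest probe sets are dimmer than those of the other genes.

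No difference between the genotypes was detected for any choroid plexus gene. In limma 0 of the 18 probe sets had an adjusted p below 0.05 and 0 an unadjusted one, beside shares of 0% and 6.76% over all 45037 probe sets. Adjusted p-values of the members ran from 0.743 to 0.991. There were 8 probe sets higher and 10 lower in the knockout, with a median log2 fold change of -0.071 beside 0.078 over all probe sets. The split depended on scaling: it was 4 higher and 14 lower after median centring, which moved the median of all probe sets to -0.14, and 4 and 14 after quantile normalisation, where that median was -0.0073. The intervals were wide, so these 6 arrays do not show that levels were equal: for Ttr the interval ran from 0.778-fold to 1.82-fold, for Folr1 from 0.623-fold to 1.88-fold and for Otx2 from 0.398-fold to 1.55-fold. With 4 against 2 mice an exact permutation test cannot give a p below 0.0667.

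**Figure D3:**
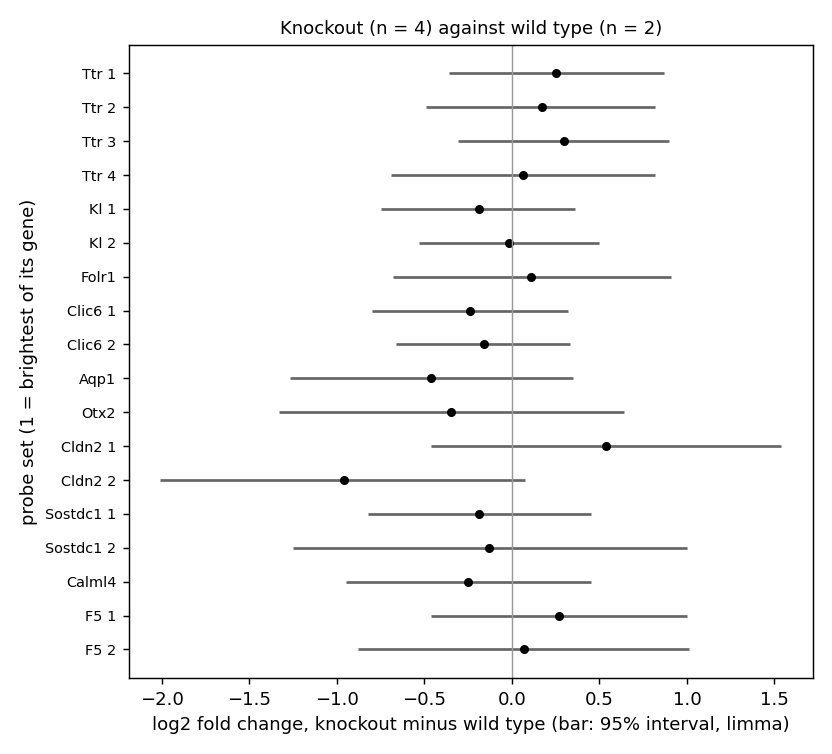
Log2 fold change of each probe set, knockout minus wild type, as points with the 95% interval from limma as bars; numbers after a gene order its probe sets from the brightest. Every interval includes 0, and the dimmer Cldn2 probe set, from -2.01 to 0.077, comes nearest to leaving it out.

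The spread between mice was, by its median, wider than that of all probe sets above the dim threshold, and it had an order. The standard deviation over the 6 arrays on the log2 scale had a median of 0.42 for the brightest probe sets of the 10 genes, beside 0.26 for all probe sets above the dim threshold. The 10 ran from 0.26 for Kl to 0.62 for Cldn2, and the 2 sets were not matched for brightness. Knockout 4 was highest for 7 of the 10 genes, wild type 2 for 2 and knockout 3 for 1. Knockout 1 and wild type 1 were each lowest for 4, and knockouts 2 and 3 for 1 each. The choroid plexus level, the mean over the 10 genes of log2 values centred on 0 for each gene, stood at -0.27, -0.12, -0.083 and 0.41 in the knockout mice against -0.27 and 0.34 in the wild-type mice. Knockout 4 was highest, and knockout 1 and wild type 1 shared the lowest level on the deposited scaling. The place of wild type 1 depended on that scaling: its level was -0.10 after quantile normalisation and -0.0016 after median centring, where knockout 1 was at -0.34 and -0.39. Knockout 4 and wild type 2 were the 2 highest under each, at 0.33 and 0.33 and at 0.24 and 0.35. The knockout mean minus the wild-type mean was -0.05, against a standard deviation of 0.29 among the knockouts. That difference was -0.17 after quantile normalisation, -0.26 after median centring and -0.13 with the mean over the probe sets of a gene. It was -0.36 without wild type 1, 0.26 without wild type 2, and 0.034, -0.015, -0.028 and -0.19 without each of knockouts 1 to 4, so its sign turned when wild type 2 or knockout 1 was left out.

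Most pairs of members varied in the same direction across the mice, and no pair passed correction. Of the 45 pairs of genes, 40 had a Pearson r above 0, with a median of 0.50 (median rho 0.49), and 7 had an exact 2-sided permutation p below 0.05. After Benjamini-Hochberg adjustment over the 45 pairs 0 passed, with 0.0625 as the smallest value. Each gene pair shares the 6 arrays and their scaling. The same counts for pairs of other genes are not given, so it is not shown whether these pairs exceed them. The median r was 0.37 without wild type 2 and 0.40 without knockout 4, the 2 mice with the highest levels, and within the 4 knockouts it was 0.36.

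The closest pair was Clic6 and Sostdc1, with r = 0.96 (exact permutation p = 0.00139, adjusted p = 0.0625) and rho = 1 (exact permutation p = 0.00278, adjusted p = 0.125). Without the 2 arrays farthest from the median, knockouts 1 and 4, it was still 0.96. Folr1 and F5 had r = 0.93 (exact permutation p = 0.00694, adjusted p = 0.125) and rho = 0.94 (p = 0.0167, adjusted p = 0.25 by exact permutation), with r = 0.90 without knockout 4 and wild type 1. Ttr and Folr1 had r = 0.91 (exact permutation p = 0.00833, adjusted p = 0.125) and rho = 0.94 (exact permutation p = 0.0167, adjusted p = 0.25). This r was 0.69 without knockout 1 and wild type 1, the arrays on which the top of the scale was lowest, and was 0.82 after quantile normalisation. Folr1 and Calml4 had r = 0.90 (exact permutation p = 0.0236, adjusted p = 0.229) and rho = 0.89 (exact permutation p = 0.0333, adjusted p = 0.25), with 0.93 without knockout 4 and wild type 1.

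Otx2 and Cldn2 followed the others least, and they were also dim. On the brightest probe sets, Cldn2, Otx2 and Aqp1 had the lowest mean signal percentiles of the members, at 48.6, 49.8 and 52.4. F5 was next at 61.1 and then Kl at 63.9, with the dim threshold at 40. The probe sets of Cldn2 had an r of 0.054 with each other. The part of dim signal in how closely a gene followed the others was not tested. Against the level of the other 9 genes, r was 0.91 for Folr1, 0.90 for Calml4, 0.83 for Sostdc1, 0.81 for F5, 0.76 for Ttr, 0.68 for Clic6, 0.51 for Kl and Aqp1, 0.28 for Cldn2 and 0.11 for Otx2, over the 6 arrays.

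**Figure D4:**
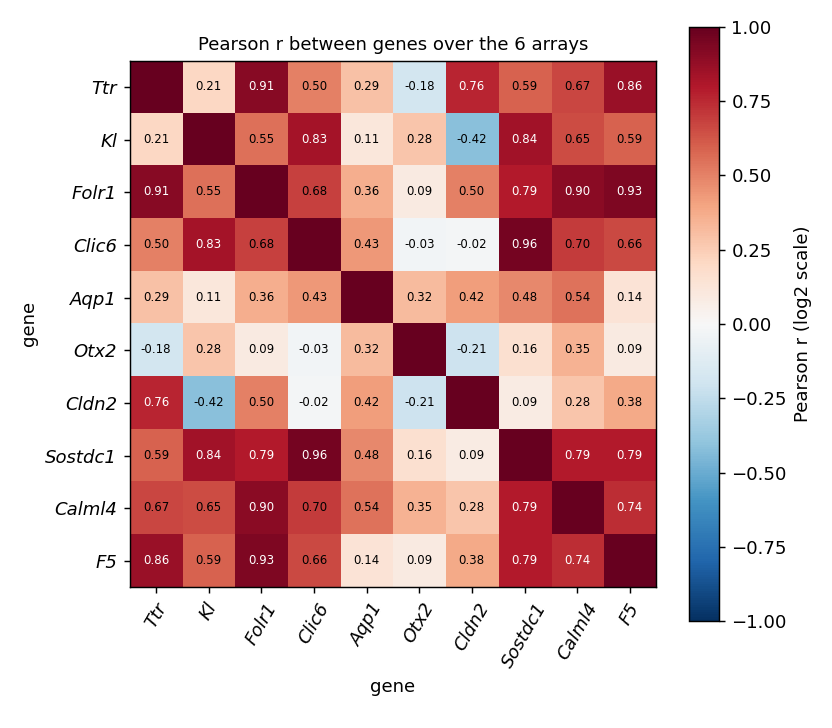
Pearson r between the brightest probe sets of each pair of choroid plexus genes over the 6 arrays, on the log2 scale; red is positive and blue negative. Clic6 and Sostdc1 reach 0.96 and Folr1 and F5 0.93, while the lowest value, -0.42, belongs to Kl and Cldn2.

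Other genes known from the choroid plexus followed this order in part. Of 59 such genes, listed as transport proteins and channels, as secreted proteins and enzymes, or as receptors, junction proteins, keratins and transcription factors, 51 were measured. Their level was -0.10, -0.12, -0.019 and 0.16 in the knockout mice against -0.02 and 0.11 in the wild-type mice, with the same 2 mice highest and a span narrower than that of the 10 genes. The median r with the choroid plexus level was 0.23 over the 42 of them above the dim threshold, beside 0.054 over all 13300 genes above it, and 3 of the 42 were above 0.8, beside 4.22% of all genes. The 3 were the inward rectifier potassium channel Kcnj13 (r = 0.86), the potassium channel subunit Kcne2 (r = 0.84) and the metalloreductase family member Steap1 (r = 0.82), given as descriptions over the 6 arrays with no p. All 3 were on the list of transport proteins and channels, whose median r above the dim threshold was 0.019, beside 0.40 for secreted proteins and enzymes and 0.23 for the third list. An r above 0.8 was not limited to choroid plexus genes. Above the dim threshold it was also reached by 1 of 13 ependymal genes, Ccdc153 (r = 0.88), and 1 of 7 astrocyte genes, Gja1 (r = 0.85). So did 1 of 5 klotho and FGF partners, Fgfr2 (r = 0.83), and 1 of 7 BMP and Wnt antagonists, Chrd (r = 0.81). Kcnj13 read 1193.8, 1572.9, 1888.6 and 2130.2 in the knockouts and 973.5 and 2113.5 in the wild types, lowest in wild type 1 and highest in knockout 4. The bicarbonate transporter Slc4a10, which neurons also express, had r = -0.81.

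In the contrast of genotypes, 18 of these 51 genes were higher and 33 lower in the knockout, with a median log2 fold change of -0.10. None had a limma adjusted p below 0.05, and 2 (3.92%) were below 0.05 before adjustment, beside 6.76% of all probe sets. They were Slc12a2, the sodium, potassium and chloride cotransporter NKCC1, at 5193 ± 524 (SD, n = 4) in the knockout against 6961 ± 1008 (SD, n = 2) in wild type, and the membrane carbonic anhydrase Car14, at 668 ± 127 (SD, n = 4) against 954 ± 1.77 (SD, n = 2). Their log2 fold changes were -0.42 and -0.50, both with a limma adjusted p of 0.738, and Slc12a2 was at -0.27 without wild type 1. Median centring shifted the array as a whole: its median log2 fold change, over every probe set, was 0.078 as deposited and -0.14 after it. Under that scaling the count was 10, with 11 genes higher and 40 lower. Without knockout 4 the count was 5 and without knockout 3 it was 4, while it was 1 without knockout 1. How many of all probe sets fell below 0.05 under these alternatives is not given. The counts and the split are therefore not read as particular to choroid plexus genes.

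Of the genes listed beside the members as family relatives or pathway partners, 0 passed an adjusted p of 0.05 in limma. The counts below 0.05 before adjustment stand beside 6.76% of all probe sets, and the lists are short. Among partners of klotho and FGF receptors 1 of 7 had an unadjusted p below 0.05, Fgfr4 at 0.90 on the log2 scale, and among folate genes 2 of 8 did, the receptor Folr2 at 1.03 and the hydrolase Ggh at -0.50. Folr2 read 318.6, 288.7, 174.8 and 370 in the knockouts and 117.2 and 107.1 in the wild types, which did not overlap, as for 16.1% of all probe sets. The tight junction scaffold Tjp1 was 1 of 8 junction genes, at 0.50, the astrocyte water channel Aqp4 1 of 6 aquaporins, at -0.64, and the clotting inhibitor Tfpi 1 of 11 genes of the coagulation list, at 0.79. Without wild type 1, Ggh was at -0.26, Tjp1 at 0.30 and Tfpi at 0.27, and Aqp4 was at -0.43. The homeobox genes Pax6 and Emx2 were 2 of 5 relatives and partners of Otx2, at -0.56 and 0.52. Among 9 thyroid hormone genes, 4 other chloride intracellular channels and 9 BMP and Wnt antagonists 0 did. All 9 antagonists were higher in the knockout as deposited, by a median of 0.20, but 6 were higher after quantile normalisation, 3 after median centring and 6 without wild type 1. Fgfr4, Folr2, Ggh, Tjp1, Aqp4, Tfpi, Pax6 and Emx2 each had a limma adjusted p of 0.738.

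Among marker lists of neighbouring tissues, the ependyma, the ciliated lining of the ventricles, was the one also highest in knockout 4 and wild type 2. Its 14 genes had levels of -0.09, -0.15, 0.038 and 0.13 in the knockout mice against -0.065 and 0.14 in the wild-type mice, and a median r of 0.63 with the choroid plexus level. Its 2 brightest genes, Pltp and Rarres2, had r of -0.25 and 0.45, and Foxj1, the factor of motile cilia, which is on the choroid plexus list too, 0.79. The 14 genes of meninges and stroma had levels of -0.09, -0.015, 0.12 and -0.13 and of 0.16 and -0.045, with the 2 brightest, Ptgds and Dcn, at r = 0.57 and -0.43 and a median r of -0.20. The 11 endothelial genes, with Slc2a1 and Slco1c1 the brightest, had a median r of -0.19. The blood list, with 4 of its 7 genes measured, was highest in knockout 2, at 0.59, and lowest in knockout 4, at -0.33. Only its 2 brightest genes, Alas2 and Slc4a1, were above the dim threshold, and both were highest in wild type 1 and lowest in knockout 4. Alas2 read 895.5 in wild type 1 and 844.4 in knockout 2, and Slc4a1 304.2 and 203. Hba-a1 and Hba-a2 were dim, at 10.3 to 134.3 over the 6 arrays, on 1 probe set each. Hbb-b1, Hbb-bs and Hbb-bt had no probe set of a single symbol, so no haemoglobin level is read from this list.

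Bright genes of other brain cells had positive r too: 0.59 for Snap25 of neurons, 0.64 for Aldoc of astrocytes and 0.61 for Mbp of oligodendrocytes, while Syt1, Slc1a2 and Cnp had -0.079, -0.047 and 0.53. The cerebellum list, with Pvalb and Zic1 the brightest, was at -2.96 in knockout 2 and 0.20 to 0.77 in the others, and that mouse had a choroid plexus level of -0.12, between the ends. The pituitary list, with Pomc and Gh the brightest, was at 1.61 in knockout 3 and -0.53 to 0.31 in the others. In the contrast of genotypes these lists of other tissues held 0 genes with a limma adjusted p below 0.05. Those below 0.05 before adjustment, beside 6.76% of all probe sets, were 1 of 14 genes of the meninges (Ogn, log2 fold change -0.42), 1 of 11 of the endothelium (Esam, -0.50), 1 of 7 of the pituitary (Lhb, 1.17) and 2 of 7 of astrocytes (Gfap, -0.63, and Aqp4), and Gfap was at -0.38 without wild type 1. Lhb was below the dim threshold, at 155.2 to 249.5 in the knockouts and 43.7 and 79.7 in wild type. All 10 cerebellum genes were lower in the knockout, and 7 of 10 without knockout 2. The part of dissection in the choroid plexus level was not tested.

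**Figure D5:**
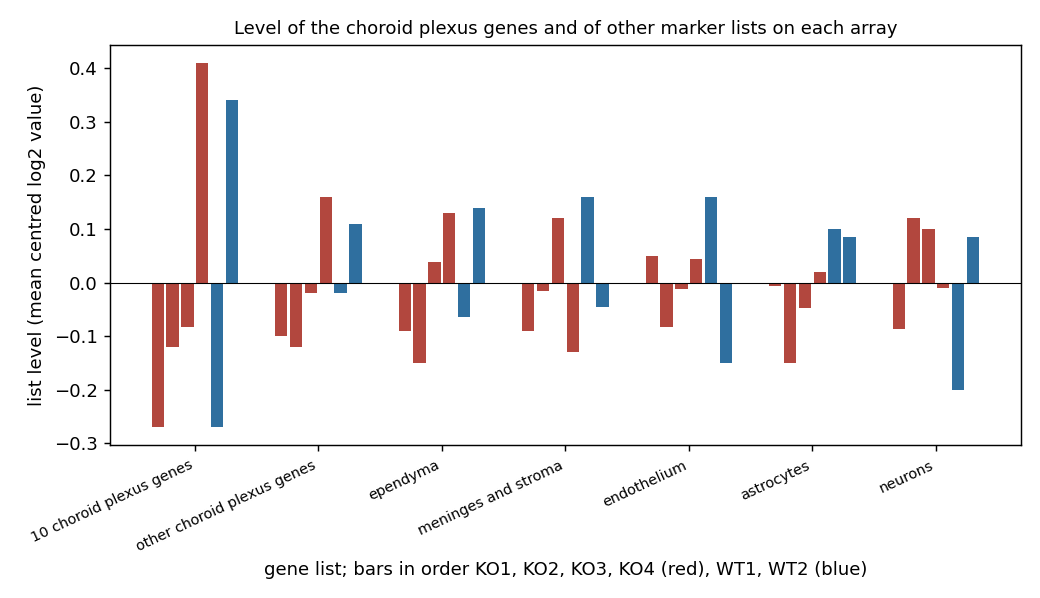
Level of the 10 choroid plexus genes and of 6 other marker lists on each array, as the mean of log2 values centred on 0 for each gene; red bars are knockouts 1 to 4 and blue bars wild types 1 and 2. The choroid plexus genes span -0.27 to 0.41, and the other choroid plexus genes and the ependyma are also highest in knockout 4 and wild type 2.

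The 10 genes outside the list whose brightest probe set was most like the choroid plexus level over the 6 arrays, among the 13300 genes above the dim threshold, were Snhg4, Mppe1, Them4, Cox19, Mettl22, Tm2d2, Tcof1, Plekho1, Nudt8 and Gm5124, with r from 0.972 to 0.995. None of the 51 other choroid plexus genes was among them. Snhg4 read 1881.3, 1991.3, 1987.4 and 2510.1 in the knockout mice against 1865 and 2510.6 in the wild-type mice. Of all 13300 genes, 561 (4.22%) had r above 0.8.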

How the data were processed

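Signal intensities of 45101 probe sets on 6 arrays, linear and scaled to a common level by the authors, were used as deposited. The submitters' processing notes name GCOS 1.3, Affymetrix software. The genome build and the method that summarised the probes are not stated there. The 64 control probe sets were left out. Symbols came from the platform annotation, and 0 probe sets listed a member among several symbols. Values were taken as log2(signal + 49.6), the offset being the 20th percentile of the table, so fold changes of dim genes are understated. Knockout minus wild type was fitted on all 45037 probe sets with no dim filter with limma's lmFit and eBayes, the prior variance following intensity (limma 3.58.1, R 4.3.3; 4 residual degrees of freedom), 2-sided, with Benjamini-Hochberg adjustment over all of them. The fit was tested on simulated data. Where a gene had several probe sets, lists, levels and correlations used the brightest. Correlations had exact permutation p-values over the 720 orders (Python 3.11.15, scipy 1.17.1).

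Members and lists were chosen with earlier results of these data known. All member probe sets were named. Of the other lists, genes with an unadjusted p below 0.05 (at most 6 per list) and the 2 brightest of each cell type list were named, and the 10 genes most like the choroid plexus level; other genes named were chosen after their values were seen. Each mouse is a separate animal, and the number of arrays limits the precision. The alternatives were 0.25 and 4 times the offset, quantile normalisation, median centring, the 40% dim filter, no trend, array weights, the mean over probe sets and leaving out each array.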

Additional observations from a re-analysis of the deposited data

Results flagged for a closer look

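The cerebellum list in knockout 2 lay far from the other knockouts: the gap from its level, -2.96, to the nearest, 0.20, was 0.866 of the whole range of the 4 knockouts, above Dixon's 95% critical value for 4 samples. Of the 41 values examined this way, 18 of them member probe sets and 23 list levels, this was the only one beyond it, and chance alone puts about 1 in 20 groups there.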

How the results depend on the processing

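No member probe set passed an adjusted p of 0.05 in limma under any alternative run, with adjusted p-values from 0.34 to 1.0. The count with an unadjusted p below 0.05, 0 in the report, was 1 after quantile normalisation, 1 after median centring, 1 with the dim filter, and 0 to 2 with 1 array left out. Of 233 values of single member probe sets under alternatives, 205 kept their direction and 28 changed it. After quantile normalisation the log2 fold change was -0.0026, -0.071 and -0.15 for 3 Ttr probe sets and -0.12 for the dimmer F5 one. After median centring it was -0.049 and -0.15 for 2 Ttr probe sets, -0.10 for Folr1 and -0.15 for the dimmer F5 one. With array weights it was 0.014 for the dim Kl probe set and -0.015 for the dimmer F5 one. With 1 array left out the 4 Ttr probe sets ranged from -0.12 to 0.62, -0.30 to 0.63, -0.078 to 0.67 and -0.42 to 0.55. The same ranges were -0.48 to 0.70 for Folr1, -0.72 to 0.22 for Calml4, -0.20 to 1.28 for the brighter Cldn2 probe set, -0.016 to 0.56 and -0.62 to 0.76 for F5, -0.70 to 0.45 for the dimmer Sostdc1, -0.49 to 0.16 for the dimmer Clic6 and -0.17 to 0.14 for the dim Kl one. The probe sets that kept their sign with 1 array left out ranged from -0.54 to -0.061 for Otx2, -0.39 to -0.0064 for the brighter Sostdc1, -0.40 to -0.048 for the brighter Clic6, -0.82 to -0.10 for Aqp1, -0.31 to -0.079 for the bright Kl and -1.22 to -0.74 for the dimmer Cldn2. The choroid plexus level difference, -0.05 in the report, was -0.17 after quantile normalisation and -0.26 after median centring, and ranged from -0.36 to 0.26 and the median r from 0.37 to 0.57 with 1 array left out. Among the other choroid plexus genes the count with an unadjusted p below 0.05, 2 in the report, was 4 after quantile normalisation, 10 after median centring, 0 without the trend and 1 to 8 with 1 array left out; the cause was not tested. The alternatives for these lists were added after seeing the data. Leaving out a wild-type array leaves 1, which is assumed to vary like the knockouts. No paired analysis was possible because the labels give no replicate numbers that the groups share.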
